A study of Mus musculus with 6 samples.

Results

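The 39 Hox genes of the mouse genome were followed in the pregnant uterus. They were taken from the 24964 genes of the deposited table as every symbol made of Hox, a cluster letter from a to d, and a paralogue number, with antisense and opposite-strand transcripts left out. HoxA supplied 11 of them, HoxB 10, HoxC 9 and HoxD 9. RNA came from uterine tissue around implantation sites on gestation day 13, as 3 control libraries and 3 libraries whose titles name a myometrial PGR deficiency and whose genotype field reads myometrial PGR knockout. PGR is the progesterone receptor, and the myometrium is the smooth muscle wall of the uterus. The sources used here do not give strain, age, the promoter or Cre that drives the deletion, or any allele that the controls also carry. Nothing in the labels ties each library to an animal of its own, so p-values here reflect differences among libraries that may be technical.

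Hox genes encode homeodomain transcription factors that lie in 4 clusters, HoxA to HoxD, and genes at the same place in each cluster form a paralogue group with one number. Low numbers lie at the end of a cluster that is switched on early and in anterior tissue, and high numbers at the end that is switched on late and in posterior tissue. In the female reproductive tract of the mouse, Hoxa9, Hoxa10, Hoxa11 and Hoxa13 are known for successive territories from oviduct to vagina, and the adult uterus keeps expressing Hoxa10 and Hoxa11, which are required for implantation. The labels give no position along the uterine horn or tract, so the values below describe which Hox genes the sampled tissue contained and not where in the tract each was made.

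Pgr itself was 9.72, 8.33 and 12.1 FPKM (fragments per kilobase of transcript scaled to library size, a level corrected for gene length) in the controls and 11.3, 12.4 and 7.73 FPKM in those labelled deficient. The groups overlapped and the second group had no lower mean (difference 0.05 on the log2(FPKM + 1) scale; two-sided exact permutation p = 0.9, where 0.1 is the smallest that 3 against 3 allows), so directions below are those of the labels. Library 3 of each group lay apart from its group, with correlations to its own group of 0.982 to 0.983 and 0.971 to 0.976, against 0.992 and 0.991 between libraries 1 and 2. All 8 smooth muscle markers fell, and their summed level was 8049 to 9840 FPKM in controls and 3252 to 3826 FPKM in those labelled deficient. Across the 12500 genes whose mean reached 1 FPKM, limma with Benjamini-Hochberg adjustment called 417 at an adjusted p under 0.05 (3.34%), 168 of them higher (1.34%) and 249 lower (1.99%). That split moved with the scaling of the libraries, to 218 higher of 429 after rescaling to equal sums, 123 of 514 with median-of-ratios scaling and 131 of 469 with quantile normalization.

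The day 13 uterus contained Hox transcripts at a mean of 1 FPKM or more from paralogue groups 2 to 11, and almost none from groups 12 and 13. Hoxb6 (mean of 6 libraries, 30.1 FPKM) and Hoxa10 (28.3 FPKM) were the most abundant, followed by Hoxa11 (17.9), Hoxb7 (17.4) and Hoxd10 (16.9 FPKM). Next came Hoxd9 (12.6), Hoxb8 (12.4), Hoxd4 (9.75) and Hoxd8 (9.49 FPKM). Going down this order, neighbours overlapped in their ranges over libraries, with breaks only after Hoxa10 and after Hoxd10 among these genes. In controls, the 7 members with a mean of at least 10 FPKM supplied 68.0% of the summed Hox level.

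Summed by paralogue number, group 10 was highest at 44.1 ± 1.03 FPKM in controls (SD, n = 3), then group 6 at 29.4 ± 3.34, group 8 at 21.3 ± 1.81, group 9 at 20.4 ± 1.18 and group 11 at 20.2 ± 3.38 FPKM. The 6 genes of groups 12 and 13, which pattern the most posterior structures such as digits, hindgut and external genitalia, never exceeded 0.022 FPKM in any library. Hoxc12 and Hoxc13 were listed at 0 in all libraries, as was the anterior gene Hoxd1. Hoxa13, the vaginal member of the HoxA series, was listed above 0 in 1 library only (0.021 FPKM, deficient 3), Hoxd13 in the same library only (0.011 FPKM), Hoxb13 in control 1 only (0.020 FPKM) and Hoxd12 in control 3 and deficient 2 (0.021 and 0.022 FPKM). In all, 31 of the 39 genes were above 0 in every library.

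**Figure D1:**
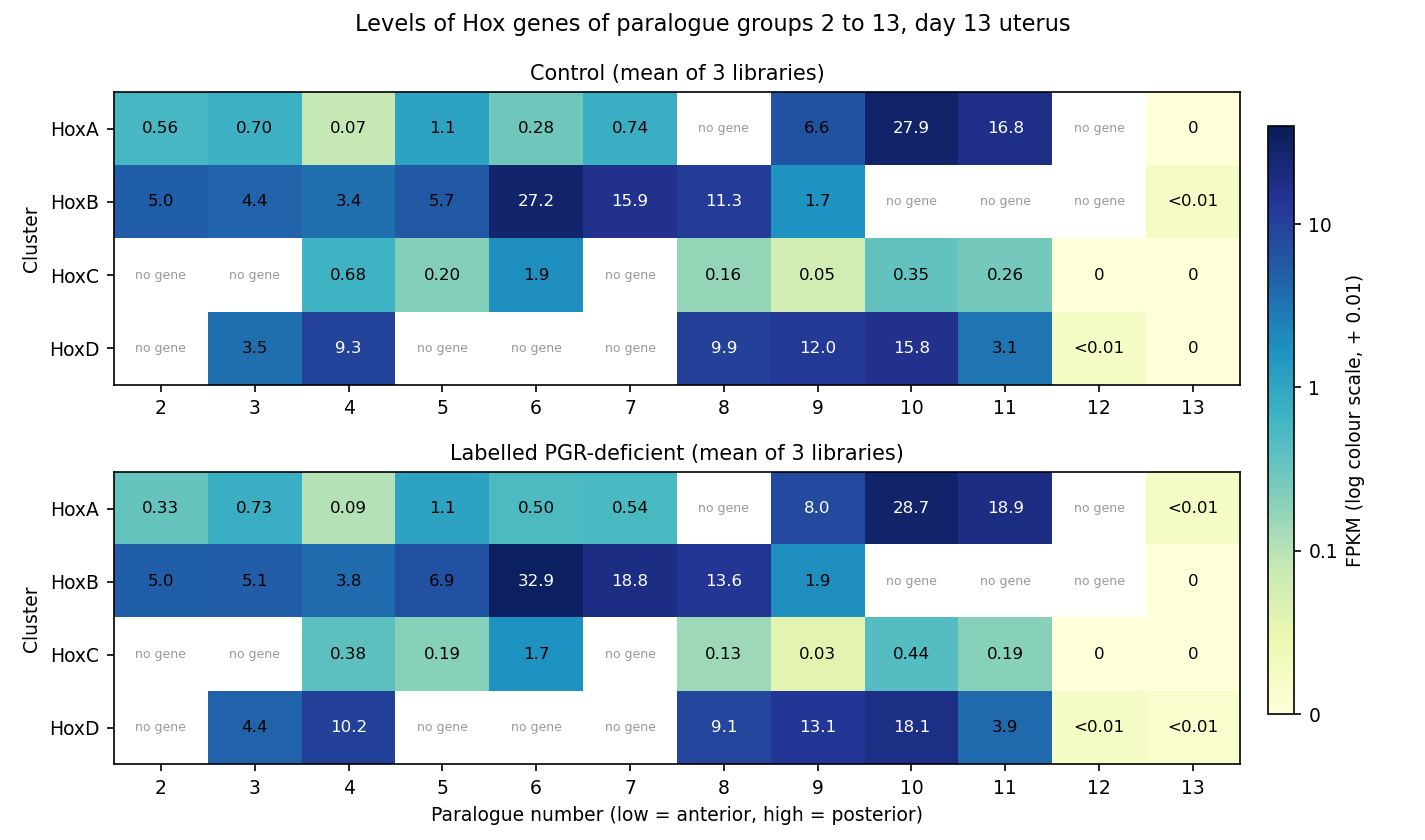
Each cell gives the mean FPKM of 3 libraries for 1 Hox gene, by cluster (rows) and paralogue number from 2 to 13 (columns), with controls above, libraries labelled PGR-deficient below and colour on a log scale; positions with no mouse gene are marked. The darkest cells are Hoxb6 and Hoxa10, the HoxC row reaches 1.9 FPKM at most, and the columns for groups 12 and 13 hold values below 0.01 FPKM or 0.

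The clusters differed in which stretch was expressed. HoxB was highest in its middle, from Hoxb6 to Hoxb8, HoxA at its posterior genes Hoxa9 to Hoxa11, and HoxD from Hoxd8 to Hoxd10 with Hoxd4 as a second high gene. HoxC was low throughout, with Hoxc6 alone reaching 1 FPKM in the mean. In the GRCm38 annotation (GENCODE release M21), Hoxa11 lies on chr6:52242106-52245810, Hoxa10 on chr6:52231197-52240854 and Hoxa9 on chr6:52223100-52231089, all on the minus strand. Hoxb8 lies on chr11:96281905-96285315, Hoxb7 on chr11:96286623-96290162 and Hoxb6 on chr11:96292476-96301569, all on the plus strand. Hoxd10 lies on chr2:74691924-74695105, also on the plus strand.

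The sequence ahead of the transcription start is shown for 5 members on which the results turn: the posterior HoxA genes, which are best known in the uterus, and Hoxb8 and Hoxd10, which were higher in every library labelled deficient. Each line gives the 250 bases before a RefSeq start on GRCm38.p6, 5′ to 3′ on the gene's own strand. Capitals mark AGAACA or its reverse complement TGTTCT, the half-site read by the progesterone and glucocorticoid receptors, and AGGTCA or TGACCT, the half-site read by retinoic acid receptors. Hoxa9 is chr6:52227371-52227620, Hoxa10 chr6:52240855-52241104 and Hoxa11 chr6:52245811-52246060, on the minus strand. Hoxa10 has another RefSeq start, with chr6:52234940-52235189 ahead of it, whose sequence is not shown. Which start this tissue uses was not tested. Hoxb8 is chr11:96281655-96281904 and Hoxd10 chr2:74691641-74691890, on the plus strand.
Hoxa9: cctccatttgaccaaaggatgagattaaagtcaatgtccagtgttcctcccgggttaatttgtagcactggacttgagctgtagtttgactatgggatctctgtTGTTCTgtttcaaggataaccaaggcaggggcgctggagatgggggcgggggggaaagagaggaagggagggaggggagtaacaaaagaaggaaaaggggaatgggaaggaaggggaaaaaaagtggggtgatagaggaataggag
Hoxa10: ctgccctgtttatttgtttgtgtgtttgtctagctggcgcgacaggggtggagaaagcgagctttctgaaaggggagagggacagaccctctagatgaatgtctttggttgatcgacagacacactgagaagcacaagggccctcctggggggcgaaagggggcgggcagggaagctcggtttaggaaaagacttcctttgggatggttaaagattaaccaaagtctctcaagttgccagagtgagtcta
Hoxa11: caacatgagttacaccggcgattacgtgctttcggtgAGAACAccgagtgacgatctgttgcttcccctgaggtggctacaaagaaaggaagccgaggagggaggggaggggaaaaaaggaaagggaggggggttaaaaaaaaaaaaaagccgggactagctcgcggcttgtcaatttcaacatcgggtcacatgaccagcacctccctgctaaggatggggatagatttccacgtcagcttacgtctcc
Hoxb8: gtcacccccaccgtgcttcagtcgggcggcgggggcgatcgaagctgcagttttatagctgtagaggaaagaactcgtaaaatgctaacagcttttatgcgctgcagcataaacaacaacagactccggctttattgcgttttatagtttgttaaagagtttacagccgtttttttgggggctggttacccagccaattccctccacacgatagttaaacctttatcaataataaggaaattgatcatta
Hoxd10: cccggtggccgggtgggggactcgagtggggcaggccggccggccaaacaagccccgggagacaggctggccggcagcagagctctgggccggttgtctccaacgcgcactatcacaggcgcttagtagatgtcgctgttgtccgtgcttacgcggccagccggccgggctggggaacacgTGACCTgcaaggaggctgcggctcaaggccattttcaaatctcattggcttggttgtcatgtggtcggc

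RefSeq starts were matched for 22 of the 39 Hox genes, with 24 entries in all. The progesterone and glucocorticoid receptor half-site occurred on either strand in 2 of the 24 (8.33%), those of Hoxa9 and Hoxa11, against 16.1% of 32851 mouse promoters of the same length. The retinoic acid receptor half-site occurred in 6 of the 24 (25%), those of Hoxb4, Hoxc4, Hoxd3, Hoxd4, Hoxd8 and Hoxd10, against 14.0% of all promoters. The 2 motifs do not overlap each other in letters. GC content of the Hox entries had a median of 58.6% (range 40.4 to 80%), against 52.4% for all promoters. A match of letters is a description of the sequence and not evidence of binding.

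Between the groups, no Hox gene passed the test. Of the 39 genes, 19 had a mean of at least 1 FPKM and entered the limma fit on log2(FPKM + 1), and 0 of them were called, against 3.34% of all genes tested; the smallest adjusted p was 0.13. At an unadjusted p under 0.05 there were 5 of 19 (Hoxa9, Hoxb5, Hoxb6, Hoxb8 and Hoxd10), against 21.5% of all genes. That count depended on scaling and weights, at 0 with median-of-ratios scaling, 2 with quantile normalization, 7 with rescaled sums and 8 with array weights, and it was 3 without control 2 or without deficient 1. The count of calls was 0 under each of the 17 other settings, with adjusted p no lower than 0.059. The median difference of the 19 was 0.16 on the log2(FPKM + 1) scale, against 0.06 over all genes tested, and 15 of the 19 were higher in those labelled deficient (78.9%, against 64.9% of all genes).

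The 95% intervals, taken gene by gene with the deposited scaling, give the range that the fit allowed for each difference among these libraries. They do not bound a difference among animals, since the labels do not tie libraries to animals. Single differences ran from -0.12 (Hoxd8) to 0.27 (Hoxd3), and the 95% intervals of all 19 lay within 1 log2 unit of 0, from -0.74 at the lowest to 0.64 at the highest. For 14 of the 19 the interval lay within 0.5 of 0. The standard error of a Hox gene had a median of 0.098, close to the 0.094 of all genes tested, so these genes were measured about as tightly as others. On this scale the change of a gene near 1 FPKM is understated.

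**Figure D2:**
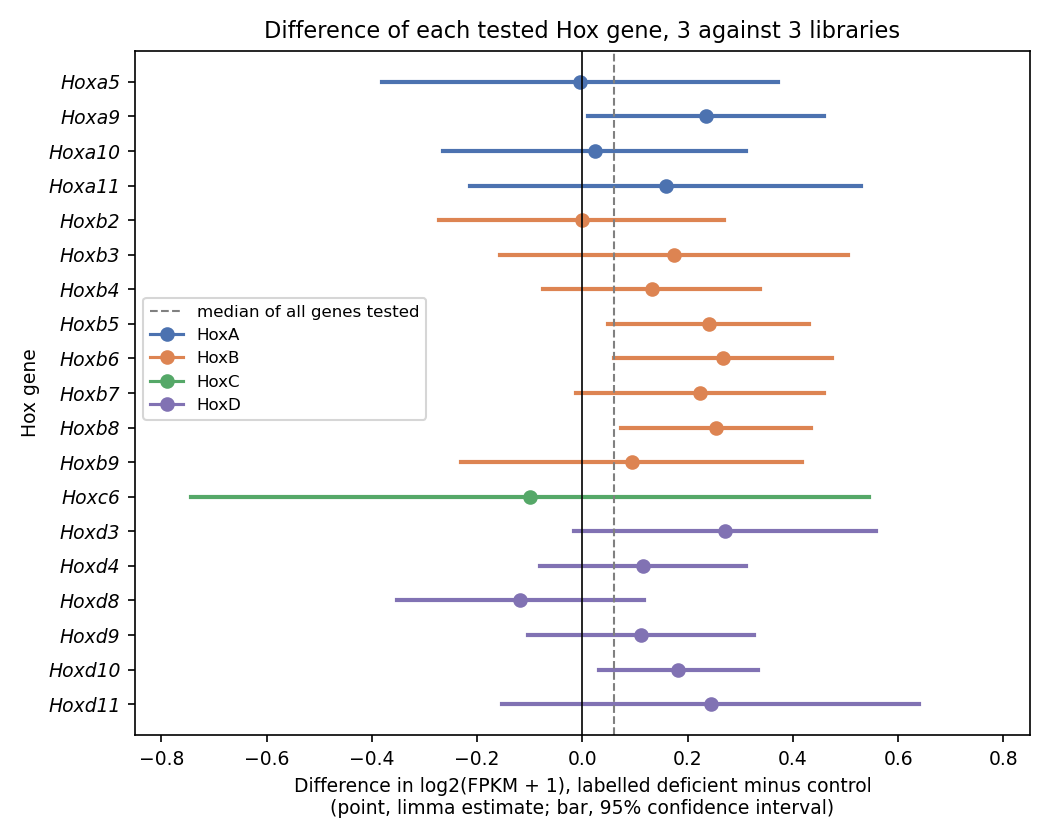
Points give the limma difference in log2(FPKM + 1), libraries labelled deficient minus controls (3 against 3), for the 19 tested Hox genes grouped by cluster; bars are 95% confidence intervals and the dashed line is the median of all 12500 genes tested, 0.06. Most points lie right of 0, and the intervals of Hoxa9, Hoxb5, Hoxb6, Hoxb8 and Hoxd10 exclude 0 before adjustment for the number of genes, which none does with median-of-ratios scaling.

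HoxB held 4 of the 6 tested members whose groups did not overlap, Hoxb5, Hoxb6, Hoxb7 and Hoxb8, which lie side by side in the cluster. Non-overlap with higher values in the libraries labelled deficient was found for 20.8% of all genes tested, and in either direction for 29.0%, so 6 of 19 is near the background. Hoxb6, the most abundant member, was 28.6, 24.0 and 29.1 FPKM in controls and 33.6, 33.2 and 31.9 FPKM in those labelled deficient. All 3 of the latter lay above every control, by a mean ratio of 1.21 (difference 0.27, SE 0.09, limma adjusted p = 0.15, range over alternatives 0.059 to 0.36).

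Hoxb8, which is also known for its role in blood and microglial lineages, was 12.3, 10.3 and 11.2 FPKM in controls and 13.4, 13.4 and 13.9 FPKM in those labelled deficient. Its spread was smaller in the second group, and it had the smallest adjusted p of all members (difference 0.25, SE 0.07, limma adjusted p = 0.13, range 0.083 to 0.33). Hoxb7 was 16.3, 14.8 and 16.7 FPKM against 21.5, 17.3 and 17.7 FPKM, and the highest value came from deficient 1 alone (difference 0.22, limma adjusted p = 0.25). Without deficient 1 the difference was 0.13. Hoxb5 was 6.11, 5.82 and 5.14 FPKM against 7.36, 6.71 and 6.60 FPKM (difference 0.24, SE 0.08, limma adjusted p = 0.17). Leaving out the third library of both groups gave differences of 0.21 for Hoxb5, 0.34 for Hoxb6, 0.29 for Hoxb7 and 0.23 for Hoxb8.

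The other tested HoxB genes overlapped between groups. Hoxb2 was 4.32, 5.16 and 5.40 FPKM in controls and 4.58, 4.53 and 5.77 FPKM in those labelled deficient. Hoxb3 was 4.14, 4.25 and 4.74 FPKM against 5.10, 6.25 and 4.03 FPKM, and deficient 3 lay below all controls. Hoxb4, studied for its part in blood stem cells, was 3.70, 3.09 and 3.48 FPKM against 4.18, 3.83 and 3.53 FPKM. Hoxb9 was 1.85, 1.75 and 1.39 FPKM against 2.14, 1.38 and 2.05 FPKM. Differences of these 4 lay between -0.00 and 0.17, and that of Hoxb3 was 0.044 without deficient 2 and 0.31 without deficient 3. Hoxb1, an early hindbrain gene, was 0.013 FPKM in every control and 0, 0.013 and 0.026 FPKM in those labelled deficient.

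The summed level of the 10 HoxB genes was 77.3, 69.3 and 77.1 FPKM in controls and 91.9, 86.6 and 85.5 FPKM in those labelled deficient, a ratio of 1.18 with no overlap. The ratio was between 1.12 and 1.22 under 3 other scalings and with each library left out. The sums did not overlap under those scalings either, while leaving out a library cannot make separated groups overlap. Among single genes tested, 20.8% did not overlap in this direction. The HoxA sum was 57.6, 55.3 and 52.0 FPKM against 51.8, 57.1 and 67.7 FPKM, and the HoxD sum 56.5, 50.7 and 53.7 FPKM against 55.5, 57.5 and 63.2 FPKM, both with overlap. The HoxC sum, the only one with a lower mean, was 2.94, 2.90 and 4.84 FPKM against 2.80, 4.48 and 1.92 FPKM (ratio 0.86, and 0.66 to 1.25 over the same settings and without the third library of both groups). The HoxD sums no longer overlapped after rescaling to equal sums and without control 1 or deficient 1, nor the HoxC sums without deficient 2. As a share of all Hox FPKM, HoxB was 39.8, 38.9 and 41.1% in controls and 45.5, 42.1 and 39.2% in those labelled deficient, so the shares overlapped. The sum over all 39 genes was 178 to 194 FPKM in controls and 202 to 218 FPKM in those labelled deficient, or 0.0479 to 0.0518% and 0.0561 to 0.0586% of all FPKM.

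These sums moved beside the tissue markers. Smooth muscle markers were lower as given above, and 2 of 7 tested epithelial markers rose (Krt19 and Cdh1), with a summed epithelial level of 594 to 660 FPKM in controls and 762 to 970 FPKM in those labelled deficient. None of 8 stromal markers was called, and their sum was 4693 to 5033 against 4210 to 4251 FPKM. Most of that sum came from Col1a1 and Col1a2 (control means 1765 and 1834 FPKM, ratios 0.86 and 0.90). Of the 8, 6 had a negative difference, while Pdgfra and Pdgfrb were higher in every library labelled deficient than in any control (ratios 1.38 and 1.14). All 4 mast cell markers fell, from a sum of 26.5 to 32.5 FPKM to 1.76 to 4.12 FPKM. Decidual markers summed to 64.3 to 362 FPKM against 6.93 to 38.3 FPKM. The lower sum lay in the decidual prolactin Prl8a2 (60.4 to 355 against 0.664 to 26.5 FPKM), which was not called (limma adjusted p = 0.089). Bmp2, Wnt4 and Alpl had higher means in those labelled deficient (ratios 1.33, 1.49 and 1.52), and 0 of the 3 tested decidual markers were called. Mesothelial markers summed to 109 to 123 against 170 to 219 FPKM, of which Krt19, also an epithelial marker, was 72.02 to 91.2 against 139 to 185 FPKM; Msln and Upk3b had ratios of 1.03 and 1.00, and Wt1 of 0.79. Embryonic and yolk sac markers summed to at most 1.15 FPKM in any library with 3 of 8 listed at 0. Trophoblast markers summed to 2.37 to 4.31 FPKM in controls and 0.76 to 2.14 FPKM in those labelled deficient. The part of these markers in the Hox values was not tested, and in whole tissue fewer cells of a type and less RNA per cell cannot be told apart.

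**Figure D3:**
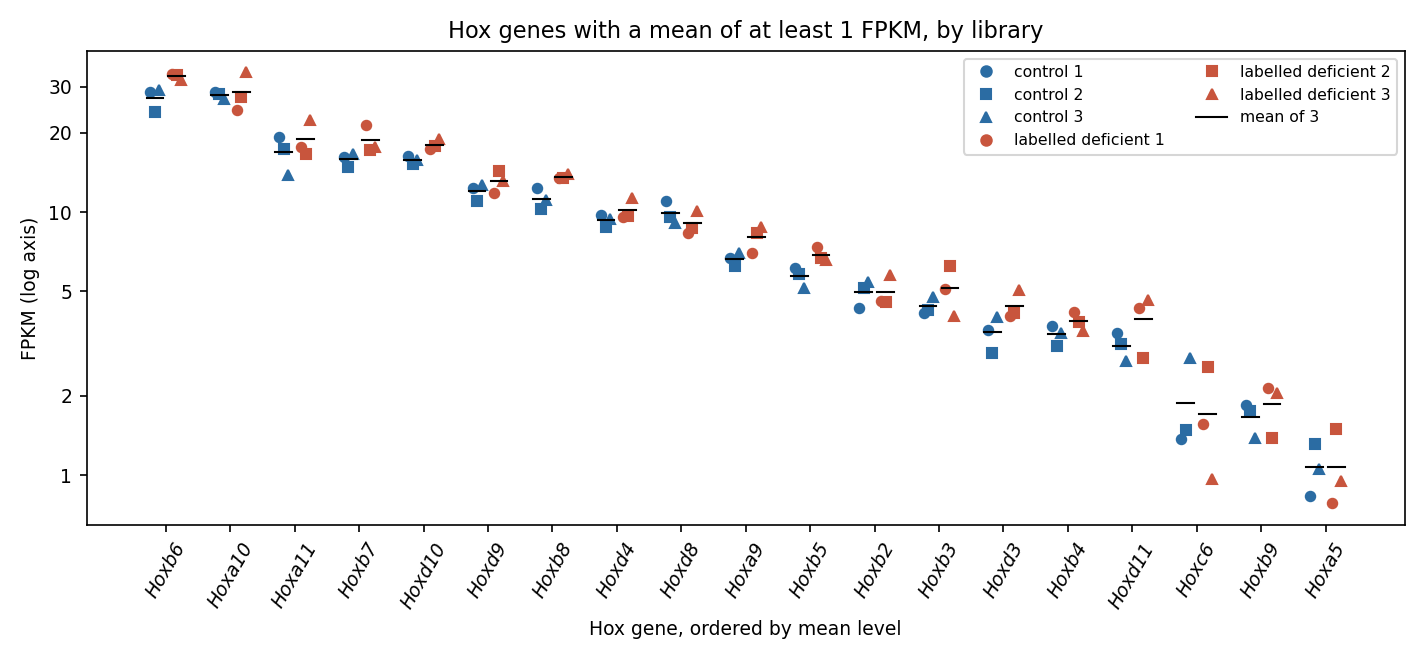
FPKM on a log axis for the 19 tested Hox genes, ordered by mean level; blue symbols are controls, red symbols are libraries labelled deficient, symbol shape gives the library number and the black line the mean of 3. Red and blue symbols separate for Hoxb6, Hoxb7, Hoxd10, Hoxb8, Hoxb5 and Hoxd3, and are spread widely for Hoxc6.

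Among the HoxA genes, Hoxa10, which is required for stromal growth and decidualization, was 28.7, 28.2 and 26.9 FPKM in controls and 24.5, 27.5 and 34.0 FPKM in those labelled deficient. The controls lay close together, and the second group ran from below to above all of them. The difference was 0.02 (95% interval -0.26 to 0.31, limma adjusted p = 0.93), and it turned to -0.13 without the third library of both groups, to -0.10 without deficient 3, and to -0.05 with median-of-ratios scaling. Hoxa11, required for implantation and for uterine glands, was 19.3, 17.4 and 13.8 FPKM against 17.7, 16.6 and 22.4 FPKM. Control 3 was the lowest and deficient 3 the highest of the 6, and the difference of 0.16 (limma adjusted p = 0.60) became -0.09 without both. The ratio of Hoxa10 to Hoxa11 was 1.69 ± 0.24 in controls and 1.52 ± 0.14 in the libraries labelled deficient (SD, n = 3 each).

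Hoxa9, linked to the oviduct in the adult tract, was 6.71, 6.23 and 6.97 FPKM in controls and 6.96, 8.31 and 8.77 FPKM in those labelled deficient. Deficient 1 lay just under the highest control, and the other two lay above all controls (difference 0.23, SE 0.09, limma adjusted p = 0.22). Hoxa5, a regulator of lung development, was 0.836, 1.32 and 1.06 FPKM against 0.781, 1.50 and 0.952 FPKM, a difference of -0.00. The remaining HoxA genes had means below 1 FPKM and were not tested.

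Hoxa2, which patterns the branchial arches, was 0.411, 0.551 and 0.719 FPKM in controls and 0.382, 0.368 and 0.229 FPKM in those labelled deficient. It was lower in all 3 libraries labelled deficient than in any control, as were 8.16% of the genes that were tested. Hoxa3 (0.533 to 1.09 FPKM over the 6 libraries), Hoxa4 (0.053 to 0.177), Hoxa6 (0.175 to 0.731) and Hoxa7 (0.264 to 0.961) overlapped between groups.

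HoxD held the other tested members whose groups did not overlap, Hoxd3 and Hoxd10. Hoxd10, known for motor neurons of the hindlimb, was 16.4, 15.2 and 15.8 FPKM in controls and 17.3, 17.9 and 19.0 FPKM in those labelled deficient. Its values were the tightest of the abundant HoxD genes, and the second group lay above the first by a ratio of 1.14 (difference 0.18, SE 0.06, limma adjusted p = 0.18). Hoxd3, which patterns the neck vertebrae, was 3.56, 2.90 and 4.0 FPKM against 4.02, 4.15 and 5.04 FPKM, and the lowest of the second group lay just above control 3 (difference 0.27, limma adjusted p = 0.25). Without control 2 the difference was 0.17.

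Hoxd8 was the only abundant HoxD gene with a lower mean, at 11.0, 9.62 and 9.12 FPKM in controls and 8.35, 8.72 and 10.1 FPKM in those labelled deficient (difference -0.12, limma adjusted p = 0.53). It was -0.047 without control 1, -0.067 without deficient 1 and -0.19 without deficient 3. Hoxd4 was 9.72, 8.81 and 9.43 FPKM against 9.59, 9.67 and 11.3 FPKM. Hoxd9 was 12.4, 11.0 and 12.7 FPKM against 11.9, 14.3 and 13.1 FPKM. Hoxd11, which acts with Hoxa11 in kidney and forearm, was 3.46, 3.14 and 2.72 FPKM against 4.33, 2.78 and 4.65 FPKM. All of these overlapped between groups. The Hoxd11 difference of 0.24 was 0.42 without deficient 2 and 0.13 without deficient 3. Annotated exons of Hoxd3 share 388 bases with Hoxd4 on the same strand and 53.1% of their length with the readthrough gene model Gm28230, so the authors' counting could have split or shared reads among them.

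HoxC genes were low and uneven. Hoxc6, the one tested member, was 1.38, 1.49 and 2.78 FPKM in controls and 1.57, 2.59 and 0.970 FPKM in those labelled deficient. Control 3 and deficient 2 were its high libraries and the groups overlapped fully (difference -0.10, 95% interval -0.74 to 0.55, limma adjusted p = 0.86), with the sign turning to 0.32 without the third library of both groups. Hoxc4 was 0.586, 0.535 and 0.918 FPKM against 0.370, 0.577 and 0.205 FPKM. Hoxc5 lay between 0.139 and 0.308 FPKM, Hoxc8 between 0.069 and 0.207 FPKM and Hoxc9 between 0.016 and 0.079 FPKM. Annotated exons of Hoxc5 share 166 bases with Hoxc10 on the same strand, so the authors' counting could have split or shared reads between these 2 genes. The Hoxc9 values were whole multiples of 0.016 FPKM in each library (5, 2 and 2 steps against 1, 3 and 1, to within 0.0006 FPKM plus 0.6% of the value), so they rest on few reads.

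Within each group, libraries differed in their Hox profile along the clusters. Over the 28 members with a mean of at least 0.1 FPKM, the median coefficient of variation (SD over mean) in controls was 8.92% for HoxB and 8.67% for HoxD, but 25.0% for HoxA and 45.8% for HoxC. In the libraries labelled deficient it was 10.4, 9.89, 30.3 and 48.2% in the same order. The clusters also differ in level, and the number of reads behind the low genes of HoxA and HoxC is unknown, so these values are a description.

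Paralogue group 11 shared part of its order of libraries. Hoxc11, a posterior HoxC gene, was 0.502, 0.208 and 0.059 FPKM in controls and 0.297, 0.030 and 0.237 FPKM in those labelled deficient. Its neighbour Hoxc10 was 0.156, 0.298 and 0.582 FPKM against 0.227, 0.826 and 0.255 FPKM, high where Hoxc11 was low. The ratio of Hoxc10 to Hoxc11 was 0.311, 1.43 and 9.86 in controls and 0.764, 27.5 and 1.08 in the libraries labelled deficient. The Hoxc11 values were whole multiples of 0.0297 FPKM by the tolerance given for Hoxc9, with 2 steps in control 3 and 1 in deficient 2, so the ratios 9.86 and 27.5 rest on 1 or 2 steps in the denominator. Hoxa11, Hoxc11 and Hoxd11 were each highest in control 1 and lowest in control 3 among controls, and each lowest in deficient 2 within the other group, where Hoxa11 and Hoxd11 were highest in deficient 3 and Hoxc11 in deficient 1.

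With Hoxb9, 4 of the 28 members had that joint order, against 6.18% of the 15958 genes whose mean reached 0.1 FPKM. A second order, with control 3 and deficient 2 as the high libraries and deficient 3 as the low one, was shared by 7 of the 28 members, namely Hoxa3, Hoxa6, Hoxa7, Hoxb3, Hoxc4, Hoxc5 and Hoxc6, against 6.64% of all such genes. Both orders were picked after the values were seen and are given with no test. Control 3, which lay apart over the whole table, is an extreme in both orders, and deficient 3 in the second.

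**Figure D4:**
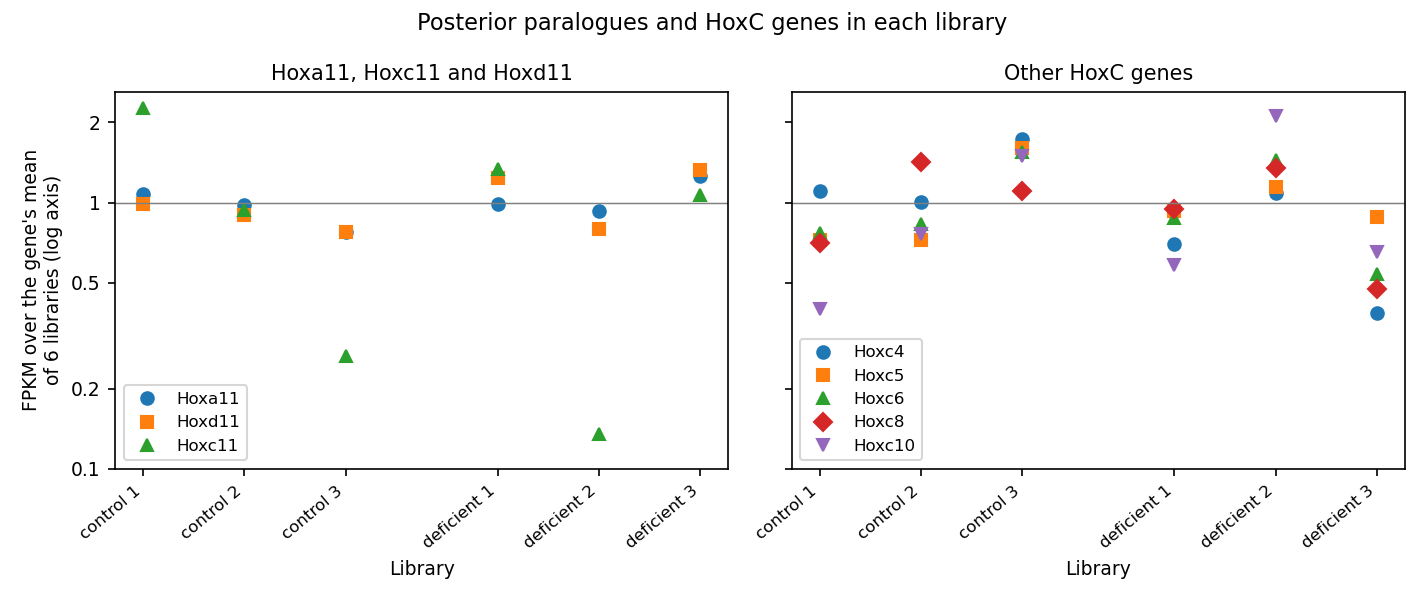
FPKM of each gene divided by its mean over the 6 libraries, on a log axis, for paralogue group 11 (left) and for the HoxC genes Hoxc4, Hoxc5, Hoxc6, Hoxc8 and Hoxc10 (right). Hoxc11 is lowest in control 3 and deficient 2, the libraries in which Hoxc10, Hoxc5 and Hoxc6 are highest within their groups. Hoxc5 and Hoxc10 share 166 annotated exonic bases on the same strand.

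HOX proteins bind DNA together with homeodomain cofactors of the PBX, MEIS and PREP (Pknox genes) families. Of 9 cofactor genes, 8 were tested, 1 was called higher, against 1.34% of all genes, and 0 lower, with a median difference of 0.06. Meis2 rose, from 7.23, 7.21 and 7.07 FPKM in controls to 9.63, 11.8 and 12.0 FPKM in those labelled deficient. All 3 lay above the controls, which differed little among themselves (ratio 1.56, difference 0.57, SE 0.09, limma adjusted p = 0.030, range over alternatives 0.018 to 0.12). The call was lost without control 1, 2 or 3 or deficient 2, with no filter, and without the third library of both groups.

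Meis3 was 5.92, 5.87 and 6.54 FPKM in controls and 7.19, 7.34 and 7.80 FPKM in those labelled deficient. The groups did not overlap, and the gene missed the threshold (difference 0.25, limma adjusted p = 0.11, range 0.028 to 0.31). Pbx3 was 2.97, 3.89 and 3.12 FPKM against 2.49, 2.74 and 2.89 FPKM (difference -0.22, limma adjusted p = 0.28).

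**Figure D5:**
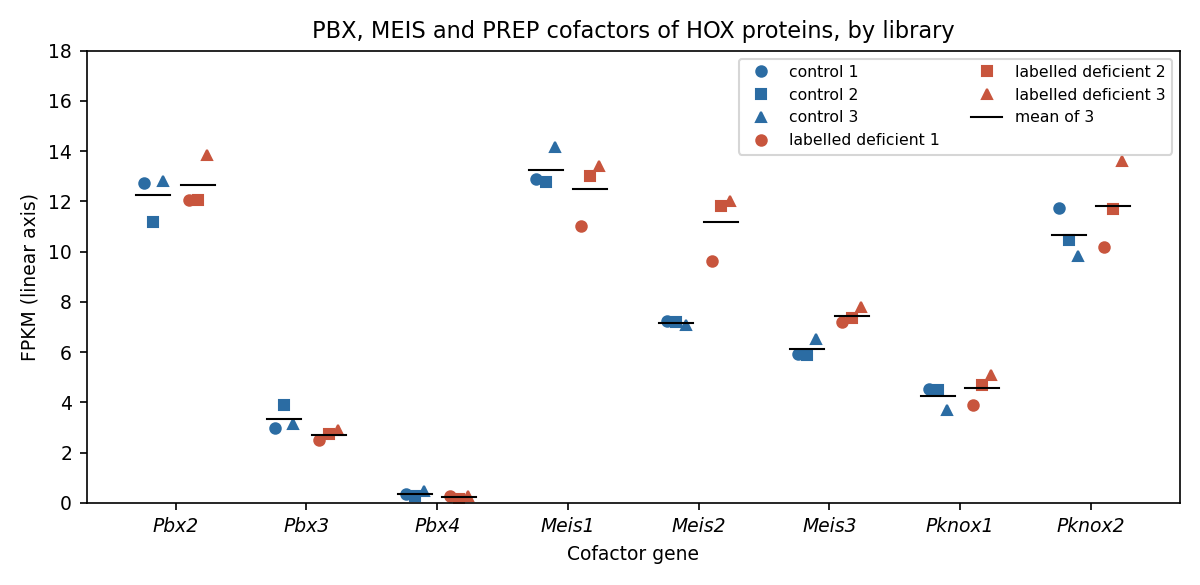
FPKM on a linear axis from 0 for 8 PBX, MEIS and PREP cofactor genes; blue symbols are controls, red symbols are libraries labelled deficient, symbol shape gives the library number and the black line the mean of 3. Meis2 and Meis3 lie above the controls, and Pbx3 and Pbx4 below them, in all 3 libraries labelled deficient.

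Chromatin regulators of Hox clusters are the Trithorax and MLL proteins that keep Hox genes on and the Polycomb proteins that keep them off. Limma called 0 of the 30 tested genes, against 3.34% of all genes. At an unadjusted p under 0.05 there were 8 of 30, against 21.5% of all genes. The median difference was 0.13, against 0.06 over all genes tested. Of the 30, 28 were higher, as were 64.9% of all genes tested. The smallest p-values were those of Kdm6a, the H3K27 demethylase UTX (4.86, 4.64 and 5.13 against 6.21, 6.18 and 5.63 FPKM, difference 0.25, adjusted p = 0.11, range over alternatives 0.022 to 0.30), and of the Polycomb subunit Pcgf2 (difference 0.25, adjusted p = 0.12). Kmt2a, the MLL1 methyltransferase, differed by 0.22 (adjusted p = 0.17, range 0.044 to 0.41); both Kdm6a and Kmt2a passed with array weights only.

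Regulators upstream of Hox genes were taken as retinoic acid enzymes, receptors and carriers, the Cdx genes and Gdf11, and 15 of 21 were tested. Limma called 0, against 3.34% of all genes, and 3 of 15 had an unadjusted p under 0.05, against 21.5% of all genes. Rara, a retinoic acid receptor, was 7.88, 7.54 and 7.07 FPKM in controls and 9.61, 9.11 and 9.06 FPKM in those labelled deficient (difference 0.27, adjusted p = 0.079, range 0.028 to 0.24). Aldh1a1, which makes retinoic acid, differed by -0.88 (adjusted p = 0.14), with control 1 near the level of the second group (3.19, 6.80 and 7.33 against 2.88, 2.54 and 2.21 FPKM). Without control 1, Aldh1a1 passed the test (difference -1.19, adjusted p = 0.023, range over alternatives 0.023 to 0.35). Aldh1a2, of the same family, was 235, 228 and 214 FPKM in controls and 327, 254 and 206 FPKM in those labelled deficient. This far more abundant transcript overlapped between groups (difference 0.19, limma adjusted p = 0.55). Cdx2 and Cdx4, which set Hox levels in the embryonic axis, were listed at 0 in every library.

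Patterning genes of the reproductive tract had 16 of 30 members tested, 1 called higher, against 1.34% of all genes, and 0 lower. Their median difference was 0.20, against 0.06 over all genes. At an unadjusted p under 0.05 there were 8 of the 16, against 21.5% of all genes. Gli1, a transcription factor and target of hedgehog signalling, rose from 1.20, 1.20 and 0.853 FPKM in controls to 1.91, 1.98 and 2.06 FPKM in those labelled deficient (difference 0.52, SE 0.10, limma adjusted p = 0.043). Its call was lost without any 1 of the 6 libraries, with a pseudocount of 0.1 and with no filter (adjusted p 0.015 to 0.14 over alternatives). Ptch1, also of the hedgehog pathway, differed by 0.02 (limma adjusted p = 0.90), and hedgehog signalling itself was not tested. Emx2, a homeobox gene repressed by Hoxa10 in endometrial cells, was 17.2, 14.8 and 16.2 FPKM against 21.0, 22.6 and 19.7 FPKM (difference 0.37, adjusted p = 0.070, range 0.028 to 0.21). Bmpr1a, a BMP receptor, differed by 0.25 (adjusted p = 0.076, range 0.026 to 0.24), and Hand2, a stromal factor induced by progesterone, by -0.48 (adjusted p = 0.11, range 0.013 to 0.29), passing with array weights, without deficient 3 and without the third library of both groups.

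Genes linked to Hoxa10 or Hoxa11 in the uterus had 17 of 20 members tested, with 2 called higher, against 1.34% of all genes, 0 lower and a median difference of 0.04. At an unadjusted p under 0.05 there were 11 of 17, against 21.5% of all genes. This list was chosen with earlier results of these data known, as was the patterning list. The 2 lists share genes, Emx2 and Hand2 among them, so their counts are not independent. Cdkn1a, the cell cycle inhibitor p21, rose from 16.3, 20.1 and 17.7 FPKM to 32.0, 28.3 and 26.3 FPKM (difference 0.65, SE 0.11, limma adjusted p = 0.030, range 0.0097 to 0.12). That call was lost without control 1, 2 or 3 or deficient 1 or 2. Foxo1, a forkhead factor of decidual cells, rose from 25.1, 22.6 and 19.8 FPKM to 37.4, 33.0 and 32.0 FPKM (difference 0.58, SE 0.10, limma adjusted p = 0.041, range 0.014 to 0.15). Its call was lost without any 1 of the 6 libraries and with no filter. Ccnd3, a D-type cyclin, was 26.7, 26.2 and 25.2 FPKM against 19.6, 21.8 and 20.5 FPKM (difference -0.32, adjusted p = 0.054, range 0.013 to 0.20), and passed with median-of-ratios scaling, quantile normalization, array weights and a minimum mean of 5 FPKM. Hoxa10 and Hoxa11 themselves differed by 0.02 and 0.16 in the same libraries.

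Transcripts antisense to the Hox genes and other noncoding transcripts of the clusters had 5 of 12 members tested. Limma called 0 of the 5, against 3.34% of all genes, and 2 had an unadjusted p under 0.05, against 21.5%. Hoxa11os, which overlaps 35.0% of the exonic length of Hoxa11 on the opposite strand, was 8.06, 6.77 and 4.83 FPKM in controls and 7.06, 4.86 and 11.1 FPKM in those labelled deficient. Its high and low libraries were those of Hoxa11, and the ratio of Hoxa11 to Hoxa11os stayed between 2.03 and 3.42 in the 6 libraries. The sources used here do not say whether strand was kept, so reads of both may not be told apart. The same holds for Hoxb3 and Hoxb2, of which Hoxb3os covers 52.9 and 27.3%. Mira, a HoxA transcript, was 1.36, 1.47 and 1.23 FPKM against 0.784, 1.13 and 0.986 FPKM (difference -0.26, adjusted p = 0.20), and Hoxb5os was 2.69, 2.33 and 3.87 FPKM against 3.73, 4.35 and 3.95 FPKM (difference 0.35, adjusted p = 0.23). Hotair, the HoxC transcript beside Hoxc11, was at most 0.085 FPKM.

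Genes flanking the clusters had 9 of 12 members tested. Limma called 0 of them, against 3.34% of all genes, and 0 had an unadjusted p under 0.05, against 21.5%. Their median difference was 0.08, against 0.06 over all genes. Skap2, next to HoxA, was 20.5, 19.4 and 16.5 FPKM in controls and 21.7, 21.3 and 22.4 FPKM in those labelled deficient (difference 0.21, adjusted p = 0.25). Cbx1, near HoxB, was 15.4, 16.2 and 14.8 FPKM against 15.7, 17.2 and 17.1 FPKM, with overlap (difference 0.10, adjusted p = 0.41). Evx1 and Evx2, homeobox genes at the posterior ends of HoxA and HoxD, were listed at 0 in every library, and the paralogue group 13 genes beside them were above 0 in 1 library each.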

How the data were processed

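RNA-seq was made from 6 uterine libraries of gestation day 13, 3 control and 3 labelled deficient, with TRIzol extraction and a standard Illumina preparation per the labels' protocols. The authors deposited FPKM values for 24964 genes, rounded to 3 decimals. DESeq2 1.24.0, STAR 2.7.0f, cutadapt 2.7 and build mm10 are named, with no role or order, per the submitters' processing notes. The sources used here do not give the counting program, annotation, FPKM formula or strand setting. No read totals were used, so the depth behind each value is unknown. All columns were matched by the labels, and 0 were left unmatched.

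From these values, log2(FPKM + 1) was fitted with limma 3.58.1 (R 4.3.3; intensity trend, moderated spread, two-sided) over the 12500 genes whose mean reached 1 FPKM, with Benjamini-Hochberg adjustment and a threshold of 0.05. Differences are libraries labelled deficient minus controls, and folds are ratios of mean FPKM. The pseudocount of 1 understates the change of low genes. On simulated data with 200 changed genes of 12500, the fit recovered 87% of 2-fold changes with 9 false calls. It recovered 96% of 4-fold changes with 15 false calls, and with 0 changed genes it made 0 calls. The changed genes were drawn only from those of higher mean level. The recovery therefore does not cover genes of low level or changes under 2-fold.

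The Hox genes and the other lists were chosen with earlier results of these data known. Every Hox gene was counted, and 3 genes among the Hox genes and lists are not reported here by name. Of each other list, up to 4 genes with the smallest p were named, and called genes always could be. Pgr was given as a check of the labels. Cdx2, Cdx4, Aldh1a2, Ptch1, Hoxa11os, Hoxb3os, Hotair, Evx1, Evx2 and Cbx1 were named after their values were seen. Gene positions and overlaps came from GENCODE release M21 (GRCm38, the assembly of mm10), and promoter sequences from RefSeq (GRCm38.p6). Alternatives were 2 other pseudocounts, no filter, a minimum mean of 5 FPKM, 3 other scalings, no trend, array weights, a replicate block and leaving out each library. Leaving out the third library of both groups was added after the data were seen.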

Additional observations from a re-analysis of the deposited data

How the results depend on the processing

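The depth behind FPKM is unknown, and 20 of the 39 Hox genes were too low to test. No Hox gene was called in any of the alternatives. Over the whole table, 417 genes were called, with 1770 under array weights, 1275 without the third library of both groups, 99 to 525 with 1 library left out (99 without control 1, 103 without control 2, 131 without deficient 1, 188 without deficient 2) and 326 to 514 under the remaining settings. The replicate numbers do not pair the libraries (correlations of same-numbered deviations -0.14, 0.08 and -0.13; only those numbered 2 correlated best with their own number). With a replicate block, 143 genes were called over the table, 0 cofactors, 0 patterning genes and 1 gene linked to Hoxa10 or Hoxa11, which was neither Cdkn1a nor Foxo1; the calls of Meis2, Gli1, Cdkn1a and Foxo1 were not made there (adjusted p 0.088, 0.13, 0.10 and 0.054). The median Hox difference of 0.16 was 0.023 with no filter, 0.091 with median-of-ratios scaling and 0.13 to 0.20 with 1 library left out. Cofactor calls numbered 0 with no filter, 3 with array weights, 0 without the third libraries and 0 to 1 with 1 library left out. Patterning calls were 0 with a pseudocount of 0.1, with no filter and with a minimum mean of 5 FPKM, 5 with array weights, 3 without the third libraries and 0 to 1 with 1 left out. Linked genes called were 1, 8, 4 and 0 to 2 with no filter, array weights, without the third libraries and with 1 left out. Array weights also called 2 chromatin regulators, 2 retinoic acid genes and 1 noncoding transcript. Without the third libraries 1 noncoding transcript and 1 flanking gene were called, and with 1 library left out 0 to 1 retinoic acid gene. Signs turned for 6 Hox genes, Hoxa11os and Pgr. Rescaled sums gave 0.023 for Hoxa5 and 0.041 for Hoxb2. Median-of-ratios scaling gave -0.045 for Hoxa10 and -0.019 for Pgr, and quantile normalization -0.017 and -0.0054. Array weights gave -0.098 for Hoxa10, -0.011 for Hoxa11, 0.0079 for Hoxb2, 0.11 for Hoxc6 and -0.085 for Hoxa11os. Without the third libraries the values were 0.031 for Hoxa5, -0.13 for Hoxa10, -0.094 for Hoxa11, -0.034 for Hoxb9, 0.32 for Hoxc6 and -0.29 for Hoxa11os. With 1 library left out, differences ran from -0.087 to 0.099 for Hoxa5, -0.10 to 0.13 for Hoxa10, -0.096 to 0.053 for Hoxb2, -0.32 to 0.11 for Hoxc6, -0.078 to 0.23 for Pgr and -0.11 to 0.41 for Hoxa11os. The cause of these shifts was not tested.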
